A study of Mus musculus with 6 samples.

Results

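Expression of 10 genes for immune checkpoint and costimulatory molecules was examined in mouse HCC tumors with or without sorafenib (Sora). The genes were chosen by name as targets of immunotherapy, and all 10 were found by exact symbol among the 26167 genes of the expression table. They were 5 inhibitory receptors, Pdcd1 (PD-1), Ctla4, Lag3, Havcr2 (TIM-3), and Tigit, the PD-1 ligands Cd274 (PD-L1) and Pdcd1lg2 (PD-L2), and 3 costimulatory receptors, Icos, Tnfrsf4 (OX40), and Tnfrsf9 (4-1BB). The tumors grew from Hepa1-6 cells, a mouse hepatoma line, placed under the skin of female C57BL/6J mice that were 6 to 8 weeks old. Whole tumor tissue, which holds cancer cells together with stroma and immune cells, was sequenced from 3 control tumors (numbered 1, 3, and 4 in the labels) and 3 Sora-treated tumors (2, 3, and 4). Sora, an inhibitor of RAF and receptor tyrosine kinases, was injected ip at 10 mg/kg, first on day 9 and then on days 11, 13, and 15. What the control mice received is not given in the sources used here. The labels do not say that each tumor came from its own mouse, so the p-values measure only the spread between these tumors. Each tumor had between 31073830 and 36205814 counted reads, and the hepatoma gene Alb (974 to 1680 FPKM) and the T cell receptor genes Cd3d, Cd3e, and Cd3g were read in every tumor.

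Inhibitory receptors are raised on T cells and NK cells after activation and dampen their signaling when they meet a ligand on a tumor cell or an antigen-presenting cell. PD-1 binds PD-L1 and PD-L2, CTLA-4 competes with CD28 for CD80 and CD86, LAG-3 binds MHC class II molecules, and TIGIT competes with the activating receptor CD226 for PVR (CD155). ICOS, OX40, and 4-1BB do the opposite and strengthen the response of a T cell that has already met its antigen, and several molecules of both kinds are abundant on Treg cells inside tumors.

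Per length, the ligand Cd274 was the most highly expressed of the 10 genes and Icos the lowest in both groups. FPKM (fragments scaled by gene length and library size) averaged 51.1 for Cd274 and 23.3 for Pdcd1lg2 in control tumors, followed by Tigit (20.7), Tnfrsf9 (18.1), Lag3 (16.6), Pdcd1 (11.6), Havcr2 (6.99), Ctla4 (4.36), Tnfrsf4 (4.15), and Icos (2.91). Tigit was thus the leading inhibitory receptor of the control tumors by mean FPKM. Neighbors in this order whose ranges over the 3 control tumors overlapped were Pdcd1lg2 and Tigit, Tigit and Tnfrsf9, Tnfrsf9 and Lag3, and Ctla4 and Tnfrsf4. In Sora-treated tumors, the mean FPKM was 64.7 for Cd274, 27.6 for Tigit, 25.8 for Pdcd1lg2, 19.5 for Tnfrsf9, 14.2 for Lag3, 11.1 for Pdcd1, 5.84 for Havcr2, 4.89 for Tnfrsf4, 3.77 for Ctla4, and 2.502 for Icos. Here only the ranges of Tigit and Pdcd1lg2 overlapped. The 10 genes had between 163 and 10993 reads in a tumor, so all of them passed the minimum of 10 reads in at least 3 tumors and entered the test.

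**Figure D1:**
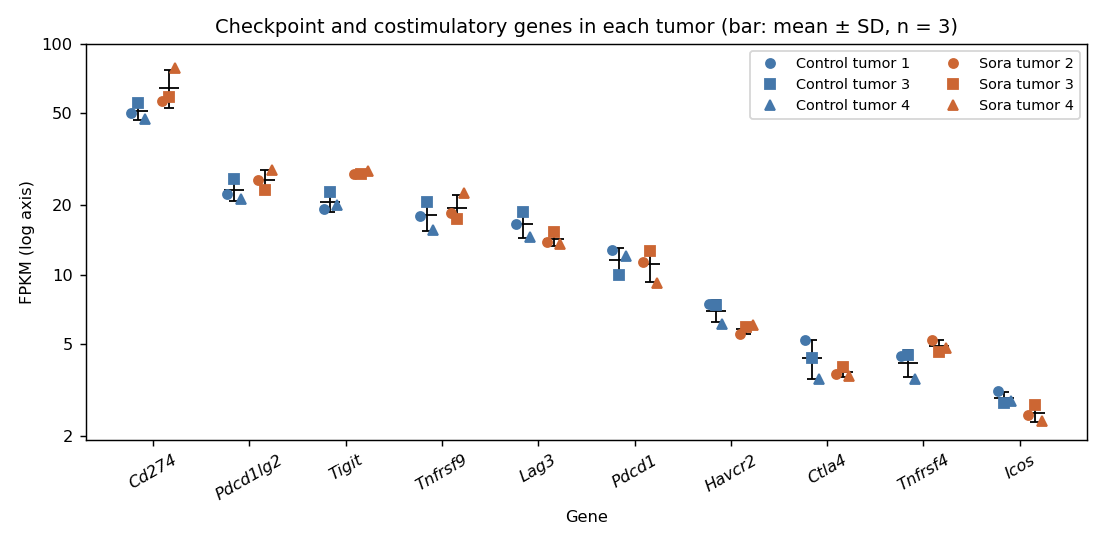
FPKM (log axis) of the 10 genes in each of 6 tumors, with blue for control and orange for Sora-treated tumors, and bars for the mean and SD of 3 tumors. On this scale, the Sora-treated tumors all lie above the control tumors for Tigit (27.3 to 28.0 over 19.2 to 22.9), Cd274, and Tnfrsf4, and all below them for Icos (2.32 to 2.73 under 2.77 to 3.13) and Havcr2.

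Of the 10 genes, 1 passed the test across all genes, and it was Tigit, which was up-regulated in Sora-treated tumors. No member passed the test downward, although 5 had estimates below 0. By edgeR's quasi-likelihood test with Benjamini-Hochberg adjustment over all 16513 genes tested, an adjusted p under 0.05 was reached by 1.94% of all genes in the upward direction and by 1.34% in the downward direction. At an unadjusted p under 0.05, 2 members (Tigit and Cd274) were higher and 0 were lower, beside 8.53% of all genes higher and 8.69% lower. DESeq2 and limma voom each called 1 member higher and 0 lower. Over the whole table, DESeq2 called 619 higher and 575 lower among 25272 genes with a p-value, and limma voom 296 and 232 among 16513. The fitted log2 fold changes of the 10 genes lay between -0.25 and 0.42, 5 above 0 and 5 below, with a median of 0.031 beside 0.00 over all genes tested.

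**Figure D2:**
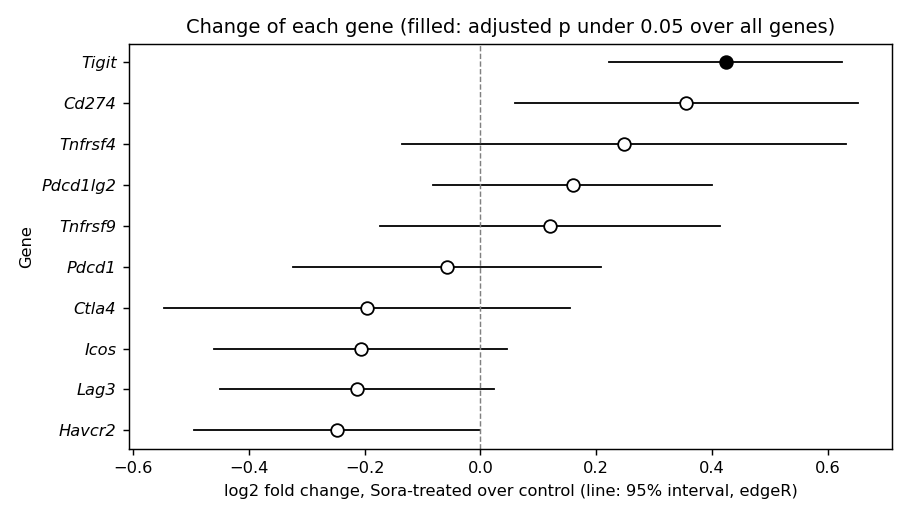
Log2 fold change of each gene in Sora-treated over control tumors (point) with its 95% interval from edgeR (line). The filled point, Tigit at 0.42, passed 0.05 after adjustment across the whole table, and Cd274 is the other gene whose interval (0.06 to 0.65) lies above 0.

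Tigit encodes a receptor of T cells and NK cells with an inhibitory tail. Its level was 39.9, 50.1, and 42.5 CPM (reads scaled to library size by TMM) in control tumors 1, 3, and 4. In Sora-treated tumors 2, 3, and 4, it was 58.0, 58.0, and 61.7 CPM. Every Sora-treated tumor lay above every control tumor, and the 3 Sora-treated tumors lay closer together than the controls (44.1 ± 5.30 vs 59.2 ± 2.14 CPM, SD, n = 3). Groups were separated in this way, in CPM, for 10.6% of all genes upward and for 11.6% downward, and among the members for Tigit upward and Icos downward. In FPKM, which is scaled by the total count instead, Cd274 and Tnfrsf4 were also separated upward and Havcr2 downward (10.6% and 11.2% of all genes), by narrow gaps. The log2 fold change of Tigit was 0.42 (SE 0.091, 95% interval 0.22 to 0.63, adjusted p = 0.0341), a 1.34-fold rise. The call depended on which tumors were in the test. It was lost without control tumor 1 (log2 fold change 0.36, adjusted p = 0.116), control tumor 4 (0.40, adjusted p = 0.104), Sora-treated tumor 2 (0.44, adjusted p = 0.0985), or Sora-treated tumor 4 (0.39, adjusted p = 0.162). It held without control tumor 3 (adjusted p = 0.0224) or Sora-treated tumor 3 (adjusted p = 0.0345). Over all genes, 321 were called higher and 222 lower with all tumors. In the fits above that lost the Tigit call, these were 115 and 59, 117 and 59, 83 and 34, and 4 and 1. The Tigit call was also lost with log2(FPKM + 1) over all genes (0.40, adjusted p = 0.144). With a replicate block, which compares only tumors 3 and 4, it was lost as well (0.37, adjusted p = 0.301). Because the count table used here lacks Sora-treated tumor 4, whose reads were derived from FPKM, the value without it rests on deposited counts alone.

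The reads given to Tigit could come in part from another gene. Tigit lies on the minus strand at chr16:43626137-43665125 (GRCm38.p6, RefSeq), whereas GENCODE M21 gives it a single transcript from base 43648867, with 919 exonic bases. The expression table uses a length of 2137 bases for Tigit. On the opposite strand, the last exon of Zbtb20 in GENCODE M21, which is 24280 bases long, covers 16466 bases of the RefSeq span. Whether the counting used strand is not given in the sources used here, and without it, reads of the 2 genes cannot be told apart where they overlap. Zbtb20 itself, which encodes a transcription factor, was at 12.7, 11.9, and 14.6 FPKM in control and 12.7, 13.5, and 11.3 FPKM in Sora-treated tumors. Its groups overlapped, and its log2 fold change was -0.06 (SE 0.090, adjusted p = 0.817). Its part in the Tigit value was not tested.

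Among genes with a mean of at least 1 CPM, those whose pattern over the 6 tumors was most like that of Tigit were Klc3, a kinesin light chain, Gm12854, and P4ha2, a collagen prolyl hydroxylase. Likeness was the root mean square difference of centered log2(CPM + 1), which was 0.0331, 0.0364, and 0.0451 for the 3 genes out of 14114. P4ha2 was at 83.0, 97.7, and 83.6 CPM in control and 121, 121, and 121 CPM in Sora-treated tumors, with the highest control value in tumor 3, as for Tigit.

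Promoter sequences are shown for Tigit, which changed, and for the members with the next largest estimates in either direction, Cd274 and Havcr2, so that their motif content can be read beside the values. Each runs 5′ to 3′ from 250 bases before to 50 bases after a start site (RefSeq, GRCm38.p6), and capitals mark a match on either strand to a RUNX (TGTGGTT), AP-1 (TGANTCA), or NFAT (GGAAAA) motif. The windows are chr16:43664135-43664434 (minus strand), chr19:29367188-29367487 (plus strand), and chr11:46454681-46454980 (plus strand).
Tigit: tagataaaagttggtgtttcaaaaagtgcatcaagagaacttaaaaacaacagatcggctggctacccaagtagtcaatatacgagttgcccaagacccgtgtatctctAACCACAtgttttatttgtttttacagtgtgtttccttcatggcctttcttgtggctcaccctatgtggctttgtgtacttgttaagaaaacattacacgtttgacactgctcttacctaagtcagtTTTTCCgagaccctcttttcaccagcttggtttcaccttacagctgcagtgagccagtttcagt
Cd274: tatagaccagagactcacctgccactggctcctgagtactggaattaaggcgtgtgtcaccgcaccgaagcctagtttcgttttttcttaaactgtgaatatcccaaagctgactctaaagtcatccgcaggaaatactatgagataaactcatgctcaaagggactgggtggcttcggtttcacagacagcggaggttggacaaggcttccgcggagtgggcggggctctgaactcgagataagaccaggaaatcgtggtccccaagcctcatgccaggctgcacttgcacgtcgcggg
Havcr2: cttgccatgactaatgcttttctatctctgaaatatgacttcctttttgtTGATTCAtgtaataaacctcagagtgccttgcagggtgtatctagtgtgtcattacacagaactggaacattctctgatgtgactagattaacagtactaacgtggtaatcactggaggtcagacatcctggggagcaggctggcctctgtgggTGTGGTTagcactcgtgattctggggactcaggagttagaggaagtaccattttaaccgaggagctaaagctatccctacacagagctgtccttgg
In the Tigit window, the first base of the RUNX match was at -141 and that of the NFAT match at -14 from the start site. The Cd274 window had no match to any of 6 motifs searched on both strands, which besides these 3 were the FOXO motif GTAAACA, the interferon-gamma activated site TTCNNNGAA, and the interferon-stimulated response element (ISRE). Windows were found for 8 of the 10 members and numbered 9 in all. Among these 9, FOXO and ISRE motifs occurred in 0 (3.65% and 3.44% of all 32851 promoters), the interferon-gamma activated site in 1, of Tnfrsf9 (8.30%), RUNX in 2 (5.27%), AP-1 in 2 (7.81%), and NFAT in 4 (23.4%). These matches describe letters and not bound sites.

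The other 4 inhibitory receptors had estimates below 0, and none of these differences passed the test. Pdcd1, the gene of PD-1, was at 24.1, 19.7, and 23.1 CPM in control and 21.8, 24.2, and 18.3 CPM in Sora-treated tumors. The groups overlapped, and the highest and the lowest of the 6 values were both in Sora-treated tumors (log2 fold change -0.06, SE 0.121, 95% interval -0.32 to 0.21, adjusted p = 0.855). Lag3 was at 32.3, 38.2, and 28.8 CPM in control and 27.5, 30.2, and 27.9 CPM in Sora-treated tumors, an overlap through Sora-treated tumor 3 (log2 fold change -0.21, SE 0.108, adjusted p = 0.351, and -0.10 without control tumor 3). Havcr2, the gene of TIM-3, which marks exhausted T cells and is also made by myeloid cells, was at 19.9, 20.6, and 16.5 CPM in control and 14.9, 16.04, and 17.0 CPM in Sora-treated tumors. Its interval just reached 0 (log2 fold change -0.25, SE 0.112, 95% interval -0.50 to 0.00, adjusted p = 0.291), and the groups overlapped through control tumor 4 and Sora-treated tumor 4. Ctla4 was at 10.8, 9.51, and 7.45 CPM in control and 7.83, 8.37, and 8.03 CPM in Sora-treated tumors. Control tumor 4 was the lowest of the 6, and the groups overlapped (log2 fold change -0.20, SE 0.159, 95% interval -0.55 to 0.16, adjusted p = 0.591). Without control tumor 1 its log2 fold change was -0.07, and without control tumor 4 it was -0.33.

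The share of each inhibitory receptor in the sum of all 5 was computed per tumor as a description, with all reads given to Tigit taken as its own. Summed over the 5 receptors, FPKM was 60.2 ± 3.64 (SD, n = 3) in control tumors and 62.5 ± 2.45 (SD, n = 3) after Sora, and the groups overlapped. Tigit made up 31.3%, 36.2%, and 35.7% of this sum in control tumors and 44.3%, 42.0%, and 46.4% in Sora-treated tumors. Lag3 went from 27.0%, 29.5%, and 25.8% to 22.4%, 23.4%, and 22.4%, and Havcr2 from 12.2%, 11.7%, and 10.9% to 8.91%, 9.13%, and 10.01%. The share of Tigit was higher, and those of Lag3, Havcr2, and Ctla4 (6.26% to 8.49% in control, 5.98% to 6.07% in Sora-treated tumors) were lower, in every Sora-treated tumor, whereas that of Pdcd1 overlapped. Shares of 1 sum depend on each other, so a higher Tigit lowers the other shares by itself, and the lower shares are no separate result for Lag3, Havcr2, or Ctla4. The shares were chosen after the values were seen and were given no test. Without Tigit, the other 4 receptors summed to 39.5 ± 3.04 FPKM in control tumors and 34.9 ± 2.71 FPKM after Sora, which overlapped.

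Cd274 and Pdcd1lg2 are neighbors on mouse chromosome 19, with 22.8 kb and no other gene between them, and encode the ligands through which tumor and myeloid cells engage PD-1. Cd274 was at 200.8, 233.1, and 191.2 CPM in control tumors and 229.1, 239.3, and 331.7 CPM in Sora-treated tumors. The groups overlapped through control tumor 3, and Sora-treated tumor 4 stood above the other 5 tumors. The log2 fold change was 0.36 (SE 0.134, 95% interval 0.06 to 0.65), which had an unadjusted p of 0.0226 and an adjusted p of 0.194. Without Sora-treated tumor 4 it was 0.17 (adjusted p = 0.567). Pdcd1lg2 was at 74.3, 91.0, and 72.4 CPM in control and 87.4, 78.6, and 99.5 CPM in Sora-treated tumors. Again tumor 4 was the highest of the Sora-treated tumors and control tumor 3 the highest of the controls, and the difference was within this spread (log2 fold change 0.16, SE 0.109, 95% interval -0.08 to 0.40, adjusted p = 0.507). The summed FPKM of the 2 ligands was 72.8, 81.7, and 68.5 in control and 82.2, 82.4, and 107 in Sora-treated tumors, so that control tumor 3 lay just under Sora-treated tumor 2 and the groups were narrowly separated.

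The 5′ end of Cd274 overlaps Plgrkt, the gene of a plasminogen receptor, by 5186 bases in RefSeq, and Plgrkt had a log2 fold change of 0.07 (adjusted p = 0.727). In GENCODE M21, Pdcd1lg2, Ctla4, Icos, and Tnfrsf9 also overlap other annotated genes. Of these, Camta1 on the strand opposite to Tnfrsf9 had a log2 fold change of 0.06 (adjusted p = 0.921).

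None of the 3 costimulatory receptors changed by the test. Icos, a member of the CD28 family found on activated T cells and on many Treg cells, was at 13.2, 12.3, and 12.2 CPM in control and 10.5, 11.7, and 10.4 CPM in Sora-treated tumors. Every Sora-treated tumor was below every control tumor, with a log2 fold change of -0.21 (SE 0.115, 95% interval -0.46 to 0.05, adjusted p = 0.399). Tnfrsf4, the gene of OX40, was at 5.54, 5.89, and 4.47 CPM in control and 6.65, 5.86, and 6.37 CPM in Sora-treated tumors. Its groups met at control tumor 3 and Sora-treated tumor 3 (log2 fold change 0.25, SE 0.174, 95% interval -0.14 to 0.63, adjusted p = 0.520). Tnfrsf9, the gene of 4-1BB, was at 41.0, 49.8, and 36.3 CPM in control and 43.3, 40.4, and 54.4 CPM in Sora-treated tumors. The groups overlapped, the log2 fold change was 0.12 (SE 0.133, 95% interval -0.17 to 0.41, adjusted p = 0.709), and without Sora-treated tumor 4 it was -0.02. The 3 receptors together summed to 25.1 ± 3.05 FPKM in control tumors and 26.9 ± 2.52 FPKM after Sora.

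Ctla4 and Icos lie 44.9 kb apart on mouse chromosome 1 and had similar estimates, and the FPKM ratio of Ctla4 to Icos was between 1.24 and 1.66 in control and between 1.45 and 1.57 in Sora-treated tumors. Lag3 lies 16.1 kb from Cd4 on chromosome 6. Cd4 was at 24.1, 16.9, and 29.8 CPM in control and 14.8, 14.8, and 18.8 CPM in Sora-treated tumors, which overlapped (log2 fold change -0.55, SE 0.182, adjusted p = 0.136). Cd4 was called lower without control tumor 3 (-0.74, adjusted p = 0.0330) and was at -0.35 without control tumor 4.

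Binding partners of the members were listed as 17 genes, all of which were tested. Of these, 1 was called higher, Pvr, and 0 were called lower by edgeR, beside 1.94% and 1.34% of all genes. At an unadjusted p under 0.05, 2 were higher and 5 lower, beside the 8.53% and 8.69% of all genes, and the median log2 fold change of the list was -0.013. DESeq2 called 4 partners lower (Cd226, Cd86, Ceacam1, and Lgals9) and limma voom 1. Pvr, the main ligand of TIGIT, CD226, and CD96 on tumor and myeloid cells, was at 24.8, 27.5, and 26.8 FPKM in control and 42.0, 34.8, and 43.1 FPKM in Sora-treated tumors. The groups were far apart relative to their spread, with a log2 fold change of 0.61 (SE 0.101, 95% interval 0.39 to 0.83, adjusted p = 0.0154), a 1.53-fold rise. As for Tigit, the call of Pvr was lost, with an adjusted p above 0.05, when control tumor 1 (0.0505), control tumor 4 (0.0510), Sora-treated tumor 2 (0.0519), or Sora-treated tumor 4 (0.0942) was left out, with log2 fold changes of 0.56, 0.62, 0.59, and 0.54, and with log2(FPKM + 1) over all genes (0.58, adjusted p = 0.138).

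Cd226, the activating receptor that shares PVR with TIGIT, was at 3.95, 2.66, and 2.79 FPKM in control and 1.73, 2.28, and 1.86 FPKM in Sora-treated tumors. Every Sora-treated tumor was below every control tumor, and the test was narrowly missed (log2 fold change -0.66, SE 0.162, adjusted p = 0.0525), and passed without Sora-treated tumor 3 (-0.78, adjusted p = 0.0296). Cd96, another receptor of PVR, overlapped between groups (log2 fold change -0.16, adjusted p = 0.720, and -0.03 without Sora-treated tumor 2 or -0.06 without control tumor 4). The other nectin ligands were at 62.3 and 65.7 CPM on average for Nectin2 (log2 fold change 0.08, adjusted p = 0.688) and at 18.8 and 21.9 CPM for Nectin3 (0.22, adjusted p = 0.249) in control and Sora-treated tumors. The log2 fold change of Nectin2 was 0.025 without control tumor 1 and 0.131 without control tumor 4. Within a tumor, the FPKM ratio of Tigit to Cd226 was 4.86, 8.62, and 7.17 in control and 15.8, 12.0, and 15.1 in Sora-treated tumors. That of Tigit to Cd96 was 6.59, 9.17, and 6.03 in control and 12.9, 9.62, and 10.2 in Sora-treated tumors. Both ratios were higher in every Sora-treated tumor, whereas the ratio of Pvr to Tigit (1.2 to 1.34 in control, 1.27 to 1.54 in Sora-treated tumors) overlapped. Over Cd226, which was itself lower, 69.7% of all other genes tested were higher in every Sora-treated tumor, so this separation is not particular to Tigit, and over Cd96 the share was 8.78%. These ratios were chosen after the values were seen and were given no test.

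**Figure D3:**
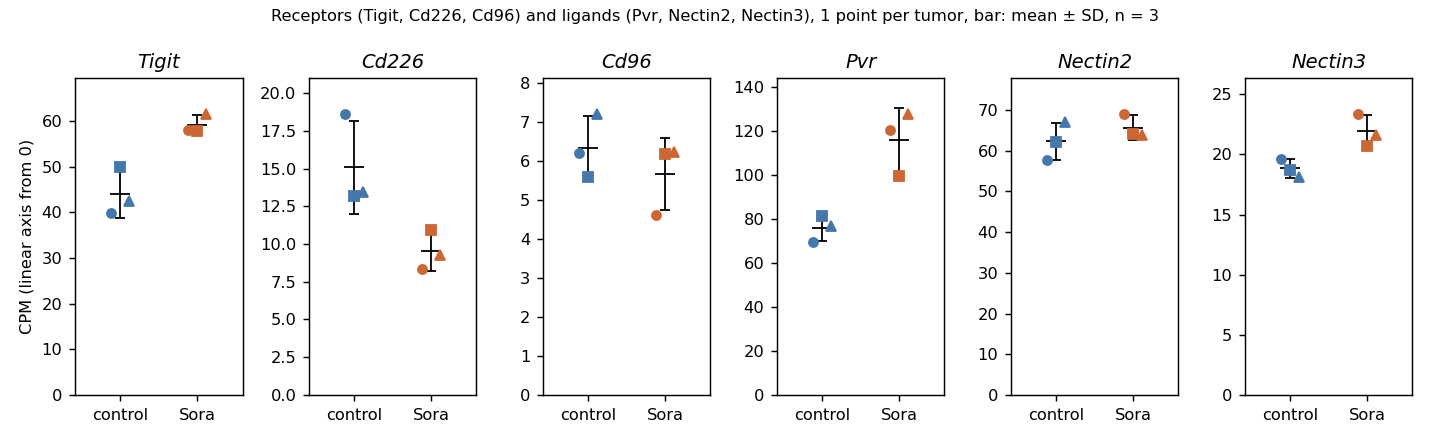
CPM (linear axes from 0) of Tigit, the receptors Cd226 and Cd96, and the ligands Pvr, Nectin2, and Nectin3 in each of 6 tumors, with bars for the mean and SD of 3 tumors. Pvr rises from 69.6 to 81.2 in control to 99.6 to 128 in Sora-treated tumors, and Cd226 is lower in each Sora-treated tumor (8.34 to 10.95) than in each control tumor (13.2 to 18.7).

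For the CD28 and CTLA-4 pair, the costimulatory receptor Cd28 was at 18.7, 14.6, and 15.4 CPM in control and 13.04, 12.8, and 13 CPM in Sora-treated tumors, lower in each (log2 fold change -0.32, adjusted p = 0.178). The estimate of Cd28 was -0.21 without control tumor 1 and -0.39 without control tumor 3. Its ligand Cd86 was at 24.2, 24.4, and 23.0 CPM in control and 18.8, 18.8, and 18.95 CPM in Sora-treated tumors, without overlap (log2 fold change -0.34, adjusted p = 0.0547). Cd80 had a log2 fold change of 0.29 (adjusted p = 0.502), which was 0.11 when Sora-treated tumor 2 was left out and 0.48 when tumor 3 of that group was. The FPKM ratio of Ctla4 to Cd28 overlapped (1.03 to 1.39 in control, 1.28 to 1.39 in Sora-treated tumors). Among ligands ascribed to TIM-3, Lgals9 (log2 fold change -0.36, adjusted p = 0.0526) and Ceacam1 (-0.60, adjusted p = 0.0618) were lower in every Sora-treated tumor without passing the test (Lgals9 passed without Sora-treated tumor 3, adjusted p = 0.0176), and Hmgb1 overlapped (-0.09, adjusted p = 0.605). Hmgb1 was at -0.14 without control tumor 3 and -0.054 without Sora-treated tumor 3. The LAG-3 ligands Fgl1 and Lgals3, the ICOS ligand Icosl, the OX40 ligand Tnfsf4, the 4-1BB ligand Tnfsf9, and the PD-L2 partner Rgmb all overlapped between groups in CPM (Rgmb was separated upward in FPKM), with log2 fold changes from -0.08 to 0.28 and adjusted p of at least 0.621. With 1 tumor left out, Tnfsf9 (0.28) lay between 0.068 and 0.544, and Rgmb (0.097) between 0.063 and 0.135.

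Of 25 further checkpoint and costimulatory genes, 24 were tested, of which 0 were called higher and 2 lower (1.94% and 1.34% of all genes). At an unadjusted p under 0.05, 0 were higher and 10 lower (8.53% and 8.69% of all genes). DESeq2 called 0 higher and 4 lower (Klrg1, Lair1, Sirpa, and Tnfrsf14), and limma voom 0 and 3. The median log2 fold change of these genes was -0.343, with 20 below 0 and 4 above. Lair1, a collagen receptor that inhibits leukocytes, fell from 38.7, 37.9, and 38.8 CPM in control to 22.0, 29.4, and 25.4 CPM in Sora-treated tumors (log2 fold change -0.59, SE 0.104, adjusted p = 0.0188). Klrg1, an inhibitory lectin receptor of differentiated T cells and NK cells, fell from 2.62, 2.12, and 1.97 to 0.831, 1.10, and 0.815 CPM (log2 fold change -1.28, SE 0.303, adjusted p = 0.0463). Both were separated between groups without overlap. The call of Lair1 was lost without control tumor 1 (adjusted p = 0.0542), control tumor 4 (0.0617), Sora-treated tumor 2 (0.0626), or Sora-treated tumor 4 (0.104). That of Klrg1 was lost without any single tumor except Sora-treated tumor 3 (adjusted p 0.0801 to 0.193 without one of the others, 0.0377 without that one), and also with total counts (0.0505) or log2(FPKM + 1) over all genes (0.144, log2 fold change -0.66). Tnfrsf18 (GITR), which Treg cells make together with OX40 and 4-1BB, was at 8.22, 8.32, and 7.51 CPM in control and 9.20, 7.68, and 10.4 CPM in Sora-treated tumors, which overlapped.

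Genes of T cells were compared next, because most of the members are made by these cells. The shares over all genes to read beside each list are 1.94% called higher and 1.34% lower by edgeR. At an unadjusted p under 0.05, they are 8.53% and 8.69%. All 13 genes listed for the T cell receptor complex and T cell lineage had a log2 fold change below 0, with a median of -0.313, and 0 were called higher and 2 lower (0 and 9 at an unadjusted p under 0.05, 0 and 5 by DESeq2, 0 and 2 by limma voom). The 2 were Cd8b1, a chain of the CD8 coreceptor (31.5, 30.01, and 25.8 CPM in control, 19.01, 19.6, and 20.4 CPM in Sora-treated tumors, log2 fold change -0.56, adjusted p = 0.0179), and Cd6 (-0.58, adjusted p = 0.0392). Their calls were lost without Sora-treated tumor 4 (adjusted p = 0.0887 for Cd8b1 and 0.176 for Cd6), Sora-treated tumor 2 (0.0693 and 0.140), or control tumor 1 (0.0596 and 0.126), and that of Cd6 also without control tumor 4 (0.109). Cd8a was at 71.7, 66.9, and 60.8 CPM in control and 52.9, 60.2, and 47.3 CPM in Sora-treated tumors, just apart (log2 fold change -0.31, adjusted p = 0.120, and -0.41, adjusted p = 0.0325, without Sora-treated tumor 3). The summed CPM of Cd3d, Cd3e, and Cd3g was 85.3 to 91.7 in control and 71.2 to 73.7 in Sora-treated tumors, with log2 fold changes of -0.27, -0.34, and -0.26 (adjusted p = 0.366, 0.113, and 0.0968). That of Cd3d was -0.16 without Sora-treated tumor 2 and -0.40 without control tumor 4. The summed CPM of the 13 genes was 328 to 373 in control and 259 to 283 in Sora-treated tumors, and none of the 13 was at 0 in all tumors. In whole tumor tissue, fewer cells of a type and less RNA per cell cannot be told apart, and the part of either in the values of the 10 genes was not tested.

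The 10 genes were therefore also set against the CD3 genes of the same tumor, again with all reads given to Tigit taken as its own. Per 100 reads of Cd3d, Cd3e, and Cd3g, Tigit had 43.5, 57.7, and 49.8 reads in control and 81.3, 78.7, and 86.6 in Sora-treated tumors. Tnfrsf4 had 6.14, 6.88, and 5.34 in control and 9.44, 8.08, and 9.07 in Sora-treated tumors, and Icos 14.5, 14.2, and 14.4 in control and 14.9, 15.95, and 14.7 in Sora-treated tumors. All 3 were higher in every Sora-treated tumor, so that Icos, lower in CPM, was slightly higher per CD3 read. Ligands are made by other cells too, but by the same measure Cd274 (219 to 268 in control, 321 to 465 in Sora-treated tumors) and Pdcd1lg2 (81.0 to 105 and 107 to 140) were also separated upward. Thus 5 of the 10 members lay higher in every Sora-treated tumor and 0 lower, beside 48.9% of all genes tested higher and 1.59% lower, since the CD3 genes themselves were lower. The mean log2 ratio of Tigit went from -1.0 to -0.28, a difference of 0.72, with an exact two-sided permutation p of 0.1, the smallest that 3 tumors against 3 can give. Lag3 (33.8 to 44.1 reads in control, 38.7 to 41.0 in Sora-treated tumors), Havcr2 (19.4 to 23.7 and 20.97 to 23.96), Ctla4 (8.84 to 11.9 and 11.1 to 11.5), Pdcd1 (22.8 to 27.1 and 25.8 to 32.9), and Tnfrsf9 (42.5 to 57.3 and 54.8 to 76.4) overlapped.

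**Figure D4:**
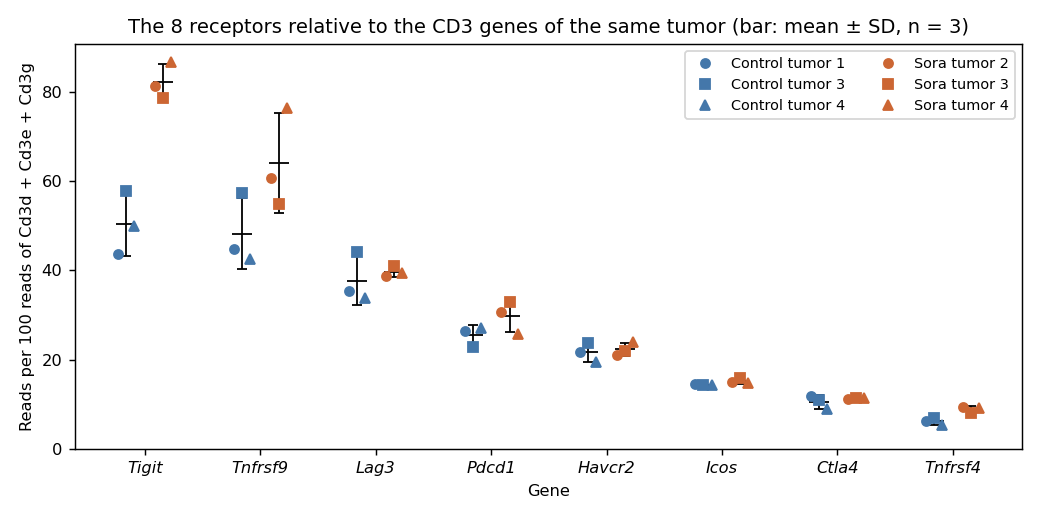
Reads of the 8 receptor genes per 100 reads of Cd3d, Cd3e, and Cd3g in the same tumor (linear axis from 0), for each of 6 tumors, with bars for the mean and SD of 3 tumors. Tigit, at 43.5 to 57.7 in control and 78.7 to 86.6 in Sora-treated tumors, has the widest gap between the groups.

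Genes of Treg cells, on which TIGIT, ICOS, CTLA-4, and OX40 are abundant, were listed as 8, of which 7 were tested and 0 called in either direction by edgeR, DESeq2, or limma voom (0 higher and 1 lower, Lrrc32, at an unadjusted p under 0.05). Foxp3, the transcription factor that defines these cells, had 84, 84, and 84 reads in control and 67, 66, and 63 reads in Sora-treated tumors. The groups did not overlap, but at this depth the interval of the difference was wide (log2 fold change -0.32, SE 0.243, 95% interval -0.85 to 0.22, adjusted p = 0.561). Of 13 regulators of T cell activation and exhaustion, edgeR and limma voom called 0 in either direction (1 higher and 5 lower at an unadjusted p under 0.05), and DESeq2 called Tox lower. Tox, a factor of exhausted T cells, was at 9.71, 10.4, and 14.0 CPM in control and 8.56, 7.03, and 5.07 CPM in Sora-treated tumors (log2 fold change -0.72, SE 0.206, adjusted p = 0.0856). Beside both lists, edgeR called 1.94% of all genes higher and 1.34% lower (8.53% and 8.69% at an unadjusted p under 0.05).

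Interferon-gamma is a known inducer of Cd274, and 13 of 14 listed genes of its axis were tested, with 0 called higher and 1 lower (2 and 5 at an unadjusted p under 0.05, 1 and 2 by DESeq2, 0 and 1 by limma voom). The shares of all genes were 1.94% and 1.34% by edgeR, and 8.53% and 8.69% at an unadjusted p under 0.05. Ciita, the master regulator of MHC class II genes, which LAG-3 binds, fell from 88.9, 99.3, and 78.0 CPM in control to 47.9, 73.2, and 52.9 CPM in Sora-treated tumors (log2 fold change -0.61, SE 0.145, adjusted p = 0.0465). Its call was lost without any single tumor except Sora-treated tumor 3 (adjusted p 0.0733 to 0.211 without one of the others, 0.00346 without that one) and under 6 other alternatives. Ifng was at 7.10, 6.91, and 7.37 CPM in control and 4.86, 8.66, and 6.25 CPM in Sora-treated tumors, and Irf1, its target, had a log2 fold change of -0.25 (adjusted p = 0.350), which was -0.11 without Sora-treated tumor 2 and -0.16 without control tumor 3. The 2 genes higher at an unadjusted p under 0.05, named after their values were seen, were the kinase gene Jak2 (341 to 361 CPM in control, 408 to 443 CPM in Sora-treated tumors, log2 fold change 0.29, adjusted p = 0.0556) and Ido1, a tryptophan-degrading enzyme (0.61, adjusted p = 0.289). Ido1 was at 37.1 CPM in Sora-treated tumor 4, where Cd274 was also highest, and between 12.0 and 21.02 CPM in the other 5 tumors. The part of this axis in the Cd274 values was not tested.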

How the data were processed

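RNA of 6 whole Hepa1-6 tumors (3 control, 3 Sora-treated) was sequenced, with 1 library per tumor. The sources differ on how the reads were handled. The study's methods name a BGISEQ-500 sequencer and alignment to GRCm38 with Bowtie2, whereas the submitters' processing notes name fastp, HISAT2, HTSeq, R 3.2.0, DESeq2, and GRCm39. The annotation and the use of strand are not given in the sources used here. Coordinates printed here are those of the GRCm38.p6 annotation and were not taken from the deposited tables. The authors deposited raw counts per gene, which are not normalized, and FPKM, which are relative to gene length and total count. The methods credit the FPKM to expectation maximization, but in the 5 tumors that the count table used here holds, each FPKM follows from the count, 1 length per gene, and the total.

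The counts of Sora-treated tumor 4 were recovered from its FPKM in the same way. When each of the 5 known tumors was treated as unknown, 20969 to 21229 genes and the totals came back exactly, and 100% of the values were within 0.001 of a whole number. For Sora-treated tumor 4 this gave 20951 genes, while another 342, with 512 reads and no known length, were set to 0. None of the 10 genes is among them.

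The test was edgeR's quasi-likelihood test (version 4.0.16, R 4.3.3) after TMM scaling, for genes that reached 10 counts in 3 or more tumors, with Benjamini-Hochberg adjustment over all genes tested and a threshold of 0.05. The study used DESeq2, which was run here as an alternative (1.42.0), as was limma 3.58.1 (voom, and log2(FPKM + 1) or log2(FPKM + 0.1)). Other alternatives were other scalings, other filters, a robust dispersion prior, a replicate block, and the fit without each tumor. At 31073830 to 36205814 reads per tumor, counting error matters for genes with few reads, such as Foxp3. Among the 10 genes, it is largest relative to the count for Tnfrsf4, which had 163 to 211 reads. The scripts were tested on simulated data. Ratios to CD3 genes are log2((CPM + 0.1)/(summed CPM + 0.1)), with an exact two-sided permutation test over the 20 ways of labeling.

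The genes named are all 10 members and their direct partners, further checkpoint genes with an adjusted p under 0.05, and from each other list the genes with an adjusted p under 0.05 or, if none, the gene with the smallest p. The CD3 genes, Cd4, Cd8a, Cd8b1, Foxp3, Ifng, Irf1, and the 3 genes most like Tigit were also named. Zbtb20, Plgrkt, Camta1, Tnfrsf18, Jak2, Ido1, Krt8, Krt18, Krt14, H19, Klra7, Il2rb, and those genes of the partner, checkpoint, regulator, and neutrophil lists that DESeq2 alone called were added after the values were seen. The members and all lists were chosen with earlier results of these data known.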

Additional observations from a re-analysis of the deposited data

How the results depend on the processing

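Of 180 log2 fold changes of the 10 genes under 18 alternatives each, 177 kept their direction. Tigit kept its direction in all 18, with log2 fold changes from 0.36 to 0.52 and adjusted p from 0.00233 to 0.301. The count of members called higher, 1 by edgeR, was 0 with a replicate block or with log2(FPKM + 1) over all genes, and 0 to 1 without one tumor. The count of partners called higher, 1 by edgeR, was 0 under the same settings and 0 to 1 without one tumor. Partners called lower, 0 by edgeR, were 4 by DESeq2, 1 by limma voom, with total counts, or with upper-quartile scaling, 3 without a filter, 2 with a robust dispersion prior, and 0 to 2 without one tumor. The count of members called lower and that of CD3 ratios without overlap (4 to 7, main 5) were not moved by over 1.5 times. With FPKM in place of CPM, chosen after seeing the data, 3 members in place of 1 were higher, and 2 in place of 1 lower, in every Sora-treated tumor.

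Over all genes, 321 were called higher and 222 lower by edgeR. The counts were 619 and 575 by DESeq2, 570 and 577 without a filter, 180 and 106 with log2(FPKM + 1), 166 and 86 with log2(FPKM + 0.1), and 0 and 0 with log2(FPKM + 1) over all genes. Leaving out Sora-treated tumor 4 left 4 and 1, leaving out Sora-treated tumor 3 gave 574 and 571, and the counts lay between these for the other tumors. The cause was not tested.

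Values that changed sign, all with an adjusted p of at least 0.802, were those of Pdcd1 (0.002 without control tumor 1, 0.046 without Sora-treated tumor 4), Tnfrsf9 (-0.016 without Sora-treated tumor 4), Icosl (-0.004 by voom, -0.121 with the block, -0.006 with log2(FPKM + 0.1), -0.051 without control tumor 3, -0.177 without Sora-treated tumor 2), Nectin2 (-0.013 with the block), Lgals3 (-0.082 without control tumor 4), Fgl1 (0.059 without control tumor 3), Tnfsf4 (0.069 with the block, 0.013 and 0.002 without control tumors 1 and 3, 0.044 without Sora-treated tumor 2), and Ifng (0.045 with the block, 0.066 without Sora-treated tumor 2). Over the fits without one tumor alone, the opposite ends of the ranges were -0.156 for Pdcd1, 0.254 for Tnfrsf9, 0.241 for Icosl, 0.310 for Lgals3, -0.142 for Fgl1, -0.056 for Tnfsf4, and -0.361 for Ifng. Of the members not called, Pdcd1lg2 ranged from 0.07 without Sora-treated tumor 4 to 0.27 without control tumor 3, and Tnfrsf4 was at 0.14 without control tumor 4.

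Besides the fits without one tumor, the calls of Pvr, Lair1, Klrg1, Cd6, Cd8b1, Ciita, Klra4, Mertk, S100a9, and Alb were all lost with the replicate block (adjusted p 0.0924 to 0.506) and with log2(FPKM + 1) over all genes (0.138 to 0.322). Those of Cd6, Ciita, Klra4, Mertk, S100a9, and Alb were also lost with log2(FPKM + 1) and log2(FPKM + 0.1) over expressed genes (0.0597 to 0.104). Ciita was lost with upper-quartile scaling (0.0520), and Ciita, Klra4, and S100a9 with a robust dispersion prior (0.0853, 0.0507, and 0.219). Lor was called higher with the replicate block (0.81, adjusted p = 0.0394).

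The labels give 2 replicate numbers, 3 and 4, to both groups. Deviations from the group mean correlated at -0.0641 and -0.0662 for tumors of the same number, and at -0.114 to 0.195 for tumors of different numbers. The deviations are centered within each group and only 2 pairs share a number. Whether such tumors shared more than the number can therefore not be told from these values. With the replicate block, which compares only tumors 3 and 4 of the groups, 80 genes were called higher and 45 lower. Tigit then had a log2 fold change of 0.37 (adjusted p = 0.301). With 3 tumors per group, the intervals above limit what could be detected.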

Other observations

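Marker genes of the other cells that a whole tumor can hold were counted in the same test, since several of them make PD-1 ligands, PVR, or TIM-3. Beside every list of this section stand 1.94% of all genes called higher and 1.34% lower by edgeR. At an unadjusted p under 0.05, the shares are 8.53% and 8.69%. Of 10 macrophage genes, 0 were called higher and 1 lower (1 and 7 at an unadjusted p under 0.05, 0 and 5 by DESeq2, 0 and 1 by limma voom). The gene called was Mertk, a receptor for the uptake of dying cells (log2 fold change -0.45, SE 0.094, adjusted p = 0.0310), and the summed CPM of the list was 1897 to 2254 in control and 1627 to 1871 in Sora-treated tumors. The call of Mertk was lost without any single tumor except Sora-treated tumor 3 (adjusted p 0.0664 to 0.156 without one of the others, 0.00423 without that one) and with log2(FPKM + 1) (0.0713) or log2(FPKM + 0.1) (0.0734). Of 5 neutrophil genes tested out of 6, 1 was called higher, S100a9, a calcium-binding protein of myeloid cells, at 11.3, 14.7, and 10.1 CPM in control and 41.8, 16.3, and 25.2 CPM in Sora-treated tumors (log2 fold change 1.21, SE 0.277, adjusted p = 0.0424). At an unadjusted p under 0.05, 4 of the 5 were higher and 0 lower, and DESeq2 called 1 higher, Csf3r, a growth factor receptor (log2 fold change 0.50 and adjusted p = 0.0721 by edgeR), and limma voom 0. All 5 had estimates above 0, and the summed CPM of the 6 listed genes was 66.7 to 77.7 in control and 98.9 to 153 in Sora-treated tumors. The log2 fold change of S100a9 was 0.79 (adjusted p = 0.104) without Sora-treated tumor 2, and its call was lost by DESeq2 (adjusted p = 0.0532), limma voom (0.0733), and without any single tumor except Sora-treated tumor 3.

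Of 7 NK cell genes, with a median log2 fold change of -0.003, 3 had estimates above 0 and 4 below, among them Klra7 (-0.70, adjusted p = 0.306) and Il2rb (-0.28, adjusted p = 0.122), which were lower in every Sora-treated tumor. At an unadjusted p under 0.05, 1 was higher and 1 lower. By edgeR 1 was called higher, Klra4, an NK cell lectin receptor of a family with near-identical copies, whose reads are therefore uncertain, at 1.62, 1.26, and 1.12 CPM in control and 5.75, 1.79, and 6.52 CPM in Sora-treated tumors (log2 fold change 1.81, SE 0.423, adjusted p = 0.0447). Its call was lost by limma voom (adjusted p = 0.132) and without any single tumor except Sora-treated tumor 3. Of 6 hepatoma genes, 3 had estimates above 0, namely Krt8 (0.30, adjusted p = 0.260), Krt18 (0.33, adjusted p = 0.206), and H19 (0.35, adjusted p = 0.393), and 3 below, with 2 higher and 1 lower at an unadjusted p under 0.05. By edgeR 1 was called lower, Alb (log2 fold change -0.55, SE 0.124, adjusted p = 0.0410, lost without control tumor 3, control tumor 4, Sora-treated tumor 2, or Sora-treated tumor 4, at an adjusted p of 0.0935, 0.125, 0.181, and 0.175). By edgeR, 0 of 8 dendritic cell genes, 0 of 5 B cell genes, 0 of 5 endothelial genes, 0 of 5 skin genes, and 0 of 5 skeletal muscle genes were called in either direction. At an unadjusted p under 0.05, 1 dendritic cell gene was higher and 2 were lower, 1 endothelial gene was lower, and 0 of the B cell, skin, and muscle genes passed. DESeq2 called Itgax, a dendritic cell and macrophage integrin, lower and 0 of the other genes of these 5 lists, and limma voom called 0. The smallest p belonged to Itgax (log2 fold change -0.34, adjusted p = 0.0909), Cd79a (-0.96, 0.423), Pecam1 (-0.23, 0.255), Lor (0.42, 0.398), and Acta1 (0.22, 0.325) in the same order. Leaving out 1 tumor moved these values. Lor was called higher without control tumor 1 (0.83, adjusted p = 0.0311), in which the skin keratin gene Krt14 was at 423.5 CPM beside 100.9 and 95.4 CPM in the other control tumors, and was at 0.24 without control tumor 3. Acta1 was at 0.12 without Sora-treated tumor 3, Pecam1 at -0.14 without Sora-treated tumor 4, and Cd79a at -0.52 without control tumor 3.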
